A study of Mus musculus with 167 samples.

Results

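The comparison concerned the liver microRNAs of 40 mice with an expanded *Htt* allele at 6 months of age, and asked whether microRNA levels follow the length of the CAG repeat once the repeat is already long. These livers were chosen by their labels as the heterozygous Q80, Q92, Q111, Q140 and Q175 livers of 6 months, and make up 40 of the 167 samples of the series. Each mouse was of strain C57BL/6, carried 1 engineered *Htt* allele with a nominal repeat of 80, 92, 111, 140 or 175 CAG units beside 1 wild-type allele, was housed with mice of its own line and received no treatment named in the labels. Each line gave 8 livers, 4 from females and 4 from males. The 8 livers of Q20 at 6 months, whose repeat of 20 is not expanded, were kept out of the fits and are given as the control level beside the values, and the 6 month livers of wild-type mice were not used here. Each repeat length is 1 line, so that length and line cannot be told apart, and the Q175 allele arose from the Q140 line by a spontaneous expansion.

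*Htt* encodes huntingtin, a protein made in nearly every tissue, and its expanded CAG repeat causes Huntington's disease, in which neurons of the striatum are lost. MicroRNAs are short RNAs cut from hairpin precursors. The mature strand pairs with messenger RNAs mainly through its seed, the bases near its 5′ end, and lowers their translation or stability, so that microRNAs with the same seed share many targets. Several microRNAs are made from more than 1 locus, and reads of a shared mature strand cannot be placed at 1 of the loci from their sequence alone. In liver, a few microRNAs of the hepatocyte make up most of the small RNA, and others mark the bile duct, vessel, stellate and blood cells that the tissue also holds.

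The mature strands of the precursors that the results turn on are shown first, because the loci of miR-26a, miR-16, let-7a and miR-181a share a strand and because miR-10a and miR-10b share a seed. Sequences are those of RefSeq on build GRCm38.p6, written 5′ to 3′ with bases 2 to 8, the seed, in capitals. The table counted precursors, so the arm that gave the reads was not known.
miR-26a-5p: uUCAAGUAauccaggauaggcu
miR-26b-5p: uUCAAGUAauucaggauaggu
miR-26a-1-3p: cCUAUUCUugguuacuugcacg
miR-26a-2-3p: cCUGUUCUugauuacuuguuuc
miR-16-5p: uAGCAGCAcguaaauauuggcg
miR-16-1-3p: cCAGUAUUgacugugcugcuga
miR-16-2-3p: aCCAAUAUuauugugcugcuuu
let-7a-5p: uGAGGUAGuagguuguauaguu
let-7a-2-3p: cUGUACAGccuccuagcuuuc
miR-181a-5p: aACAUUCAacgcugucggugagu
miR-10b-5p: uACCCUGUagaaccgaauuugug
miR-10a-5p: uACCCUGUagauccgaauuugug
miR-125a-5p: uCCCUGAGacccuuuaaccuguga
miR-125b-5p: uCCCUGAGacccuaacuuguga
miR-155-5p: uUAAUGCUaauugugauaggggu
miR-339-5p: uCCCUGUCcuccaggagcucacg
The 5p strand of miR-26a is the same for Mir26a-1 on chromosome 9 and Mir26a-2 on chromosome 10, and miR-26b-5p has its seed, while the 3p strands of both loci differ. The 5p strand of miR-16 likewise comes from Mir16-1 and Mir16-2, and that of miR-181a from Mir181a-1 and Mir181a-2. The seed of miR-125a-5p is that of miR-125b-5p, and the seed of miR-10b-5p is that of miR-10a-5p.

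The total count of a liver was between 2.75 M and 7.61 M over the 40 livers (M being 1e6), with a median of 6.42 M in Q80, 3.4 M in Q92, 3.33 M in Q111, 5.0 M in Q140 and 4.29 M in Q175. Levels are counts per M counts of the liver (CPM). Sample names carried an LB index in 30 livers and a V index in 10, of which 4 were Q80, 5 Q140 and 1 Q175. Lane here is the L number that precedes the LB index in the sample name, read as a lane. Of the 7 lanes so read for LB libraries, 4 held livers of 1 line. In V names this number was not taken as a lane. The V livers therefore formed 1 level wherever lane was the batch term. The 8 liver-rich precursors, among them Mir122, Mir192, Mir22 and Mir148a, together held between 466074 and 563549 CPM. The liver Q111 F1 stood apart, with 5142 CPM for the epithelial list against at most 835 in the other 39 livers, 124921 CPM against at most 55537 for the mesenchymal list and 330 CPM against at most 79.5 for the pancreas list. In bulk tissue, more cells of a type and more RNA per cell cannot be told apart. A second set also stood apart. In the 5 Q80 livers outside lane L3 (4 with a V index and 1 in lane L4), Mir16-2 took 37.2% to 46.5% of the counts of both miR-16 loci, against 12.6% to 15.1% in the 3 Q80 livers of lane L3 and 8.96% to 18.8% in the other 4 lines. Some results that rest on these livers are given with and without them.

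A single precursor rose with CAG length among the expanded alleles, 1 of 305 tested (0.328%, edgeR quasi-likelihood test, adjusted p under 0.05), and none was called below 0. This count moved with single libraries and with the tool. Without the liver Q175 M1, 10 precursors were called, 3 with slopes above 0 and 7 below, and DESeq2 called 2, Mir26a-1 and, with a slope below 0, Mir378b (adjusted p = 0.025). Only precursors that reached 10 counts in 7 or more livers were tested. The precursor was Mir26a-1 (GRCm38 chr9:119031796-119031885, plus strand), which lies in an intron of *Ctdspl*, a phosphatase gene, on the same strand. Its lowest, median and highest levels were 424, 695 and 900 CPM in Q80, 491, 700 and 1003 CPM in Q92, and 449, 610 and 857 CPM in Q111. They were 697, 734 and 825 CPM in Q140 and 683, 1147 and 1513 CPM in Q175, where Q20 had 501, 602 and 779 CPM. Q80 to Q140 overlapped throughout, and 6 of 8 Q175 livers lay above every liver of the other 4 expanded lines. The slope was 0.69 ± 0.15 (SE) on the log2 scale per 100 repeats (edgeR adjusted p = 0.0101), or a 1.57-fold rise from Q80 to Q175. Across all 305 precursors the median slope was -0.03, 135 slopes were above 0 and 170 below, and 48 had an unadjusted p under 0.05, 24 in each direction.

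The call for Mir26a-1 rested on the Q175 line and was lost with lane as the batch term. With no batch term the slope was 0.68 ± 0.14 (edgeR adjusted p = 0.0086), close to that with index type. Without the Q175 line the slope was 0.14 (edgeR adjusted p = 0.752), and without the liver Q175 F3 the adjusted p was 0.0716, the largest of the fits that left out 1 liver, of which 38 of 40 kept the call (the other loss was without Q175 M2). With lane in place of index type as batch, the slope was 0.29 ± 0.19 (adjusted p = 0.516). Lane L1 held 5 of the Q175 livers and no other line. Within the LB libraries alone the slope was 0.74 (adjusted p = 0.0702) with 0 of 284 precursors called (0%), and 26 at an unadjusted p under 0.05. Within the V libraries alone it was 0.65 (adjusted p = 0.252).

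The other precursors of the miR-26 family did not pass the test. Mir26a-2, in an exon of *Ctdsp2* (chr10:126995530-126995613), held far more of the counts, with medians of 37778 CPM in Q80, 38146 in Q92, 42940 in Q111, 43995 in Q140 and 42609 in Q175 against 41611 in Q20. Its slope was 0.15 ± 0.05 (edgeR adjusted p = 0.0841). The slope of Mir26b was 0.16 ± 0.08 (adjusted p = 0.316). Mir26a-1 made up a median of 1.8% of the counts of both miR-26a loci in Q80, 1.79% in Q92, 1.45% in Q111 and 1.66% in Q140, against 2.65% in Q175 and 1.42% in Q20. When the counts of the loci of each microRNA were added before the fit, a choice made after seeing the data, the slope of miR-26a as a whole was 0.16 ± 0.05 (adjusted p = 0.107), and 0 of 288 microRNAs (0%) were called, with 43 at an unadjusted p under 0.05. Counts of Mir26a-1 were fractional in all 40 livers, as when reads are divided between loci.

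**Figure D1:**
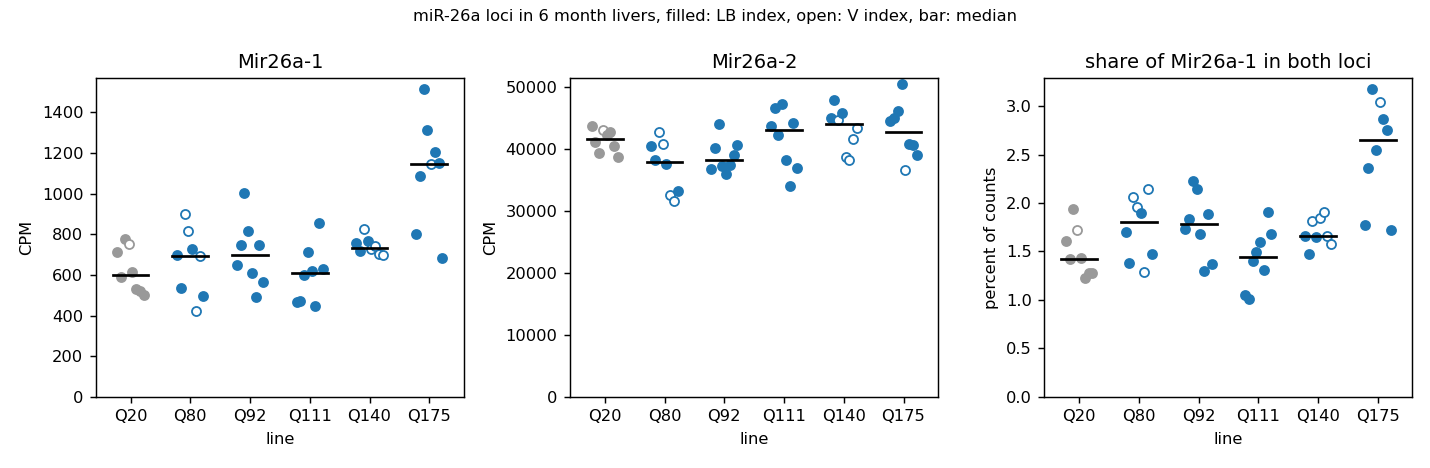
Levels of Mir26a-1 and Mir26a-2 (CPM) and the percent of the counts of both loci that fell to Mir26a-1, by line, with 1 point for each 6 month liver (filled, LB index, open, V index, grey, Q20) and a bar at the median of 8 livers. The Q175 median of Mir26a-1 was 1147 CPM and those of the other expanded lines 610 to 734 CPM, while Mir26a-2 overlapped in all lines.

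The 9 precursors with the next smallest p were not called, and 12 precursors shared the adjusted p of 0.0804. Of these, a pair within *Spaca6* had slopes above 0. Mir125a (chr17:17830812-17830879), in an exon of that gene and a homologue of the lin-4 microRNA of the worm, had medians of 1591 CPM in Q80, 1403 in Q92, 2020 in Q111, 1933 in Q140 and 1938 in Q175, and a slope of 0.40 ± 0.11. The Q20 median of 2340 CPM was above all of these. Mir99b (chr17:17830188-17830257), 554 bases upstream in an intron, had a slope of 0.27 ± 0.08, and its Q20 median of 1219 CPM was likewise above the medians of the 5 expanded lines, 904 to 1176 CPM. With the Q20 livers added to the fit, both slopes were near 0, at -0.052 for Mir125a and -0.024 for Mir99b. Every Q92 liver was below the median of the other expanded livers for each of the pair.

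Mir300 (chr12:109724313-109724391) and Mir410 (chr12:109743715-109743795), both of the imprinted *Dlk1*-*Dio3* cluster, which is transcribed from the maternal chromosome, had slopes of -0.92 ± 0.27 and -1.02 ± 0.32. Their levels were low. Mir300 had medians of 7.18 CPM in Q80, 4.64 in Q92, 4.46 in Q111, 4.89 in Q140 and 4.08 in Q175 (Q20 5.04), and Mir410 medians of 7.84, 4.47, 4.04, 3.58 and 4.77 CPM in the same order (Q20 4.03). The Q80 line thus had the highest median for both, but it overlapped the other 4. Only 1 of 8 Q80 livers lay above every other expanded line for each precursor. Mir708 (chr7:96249424-96249532, in an intron of *Tenm4*) had a slope of 2.17 ± 0.62 at levels of 0 to 5.90 CPM, a median of 3 counts a liver with 7 livers rounding to 0. Without the liver Q111 F1, the highest of all at 5.90 CPM, Mir708 passed the test (slope 2.44, adjusted p = 0.0173). The livers that brought Mir708 past the count filter were mainly of Q175, so neither fit is separate support for a rise with length. Mir378b, in an intron of *Msi2* on the other strand, had a slope of -0.31 ± 0.09, with fractional counts in all 40 livers.

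The remaining 3 precursors of this group were Mir9-2, Mir16-2 and Mirlet7a-2. Mir9-2, the locus of a neuronal microRNA, had a slope of -1.96 ± 0.62, with -2.87 within the LB libraries and 1.14 within the V libraries. The V slope rested on 1 liver, Q175 M1, at 23.6 CPM. The V livers of Q80 and Q140 had medians of 6.80 and 7.02 CPM. Mir16-2 (chr3:69009902-69009996, in an intron of *Smc4*) and Mirlet7a-2 (chr9:41536716-41536811) had slopes of -0.72 ± 0.23 and -0.48 ± 0.14. Both passed the test with lane as batch, when 3 of 305 were called (0.984%), and within the V libraries alone, when 4 of 270 were called (1.48%). Mir3074-1 was the third call in the first and Mir3074-1 and Mir29b-2 the other calls in the second, all with slopes below 0.

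The slopes of Mir16-2 and Mirlet7a-2 rested on the 5 Q80 livers outside lane L3. Without them, in a fit added after seeing the data, the slope of Mir16-2 was 0.030 (edgeR adjusted p = 0.961) and that of Mirlet7a-2 -0.18 (adjusted p = 0.835), and Mir26a-1 was again the 1 call, with a slope of 0.76 (adjusted p = 0.0187). The share of Mirlet7a-2 in the counts of both let-7a loci was 19.0% to 22.7% in those 5 livers and 8.36% to 14.5% in the other 4 lines, and that of Mir181a-1 in miR-181a was 5.03% to 6.34% against 1.61% to 3.73%. With loci added up, the slopes were 0.02 ± 0.06 for miR-16 (adjusted p = 0.847), 0.06 ± 0.08 for let-7a (adjusted p = 0.738) and 0.12 ± 0.08 for miR-181a (adjusted p = 0.479). The 5 Q140 livers with a V index did not share the high part for Mir16-2, and their counts of it were 1176 to 1502 CPM against 3497 to 5440 CPM in the 4 Q80 livers with a V index. Mir3074-1 had 22.4 to 34.7 CPM in those 4 Q80 livers and 10.5 to 20.3 CPM in the 5 Q140 livers. The calls of Mir3074-1 and Mir29b-2 are not given without the 5 Q80 livers. Total counts were 5.81 M to 7.61 M in the 5 Q80 livers and 3.37 M to 5.71 M in the other 3, and the part of depth in the split was not tested.

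**Figure D2:**
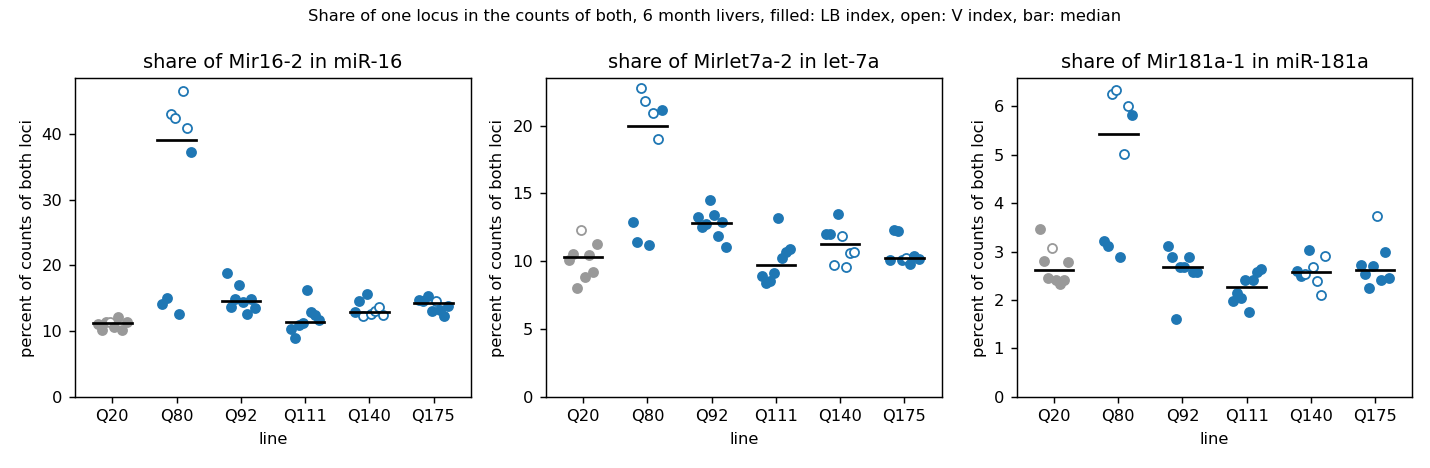
Percent of the counts of both loci that fell to Mir16-2, Mirlet7a-2 and Mir181a-1, by line, with 1 point for each 6 month liver (filled, LB index, open, V index, grey, Q20) and a bar at the median of 8 livers. The 5 Q80 livers outside lane L3 sit between 37.2% and 46.5% for Mir16-2, above every other liver.

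The scale of CAG length moved the count of calls. With log2 of the length in place of the length, 16 of 305 precursors (5.25%) passed, 8 in each direction. Slopes were above 0 for Mir26a-1, Mir26a-2, Mir125a, Mir99b, Mir224, Mir214, Mir708 and Mir16-1. They were below 0 for Mir300, Mir410, Mir378b, Mir9-2, Mir16-2, Mirlet7a-2, Mir138-2 and Mir3074-1. The edgeR adjusted p of the 16 lay between 0.0394 and 0.0496. Mir16-1 and Mir16-2, which share a strand, thus had opposite slopes, 0.254 and -0.679. Mir16-1 was also called for any difference among lines (adjusted p = 0.00288) and for departure from a straight line (0.0198). With the rank of the line in place of the length, 15 passed. Neither set of calls is given without the 5 Q80 livers outside lane L3. The slope of Mir214, a stellate and smooth muscle microRNA, was 0.33 ± 0.11 per 100 repeats on the scale of length (edgeR adjusted p = 0.0932).

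**Figure D3:**
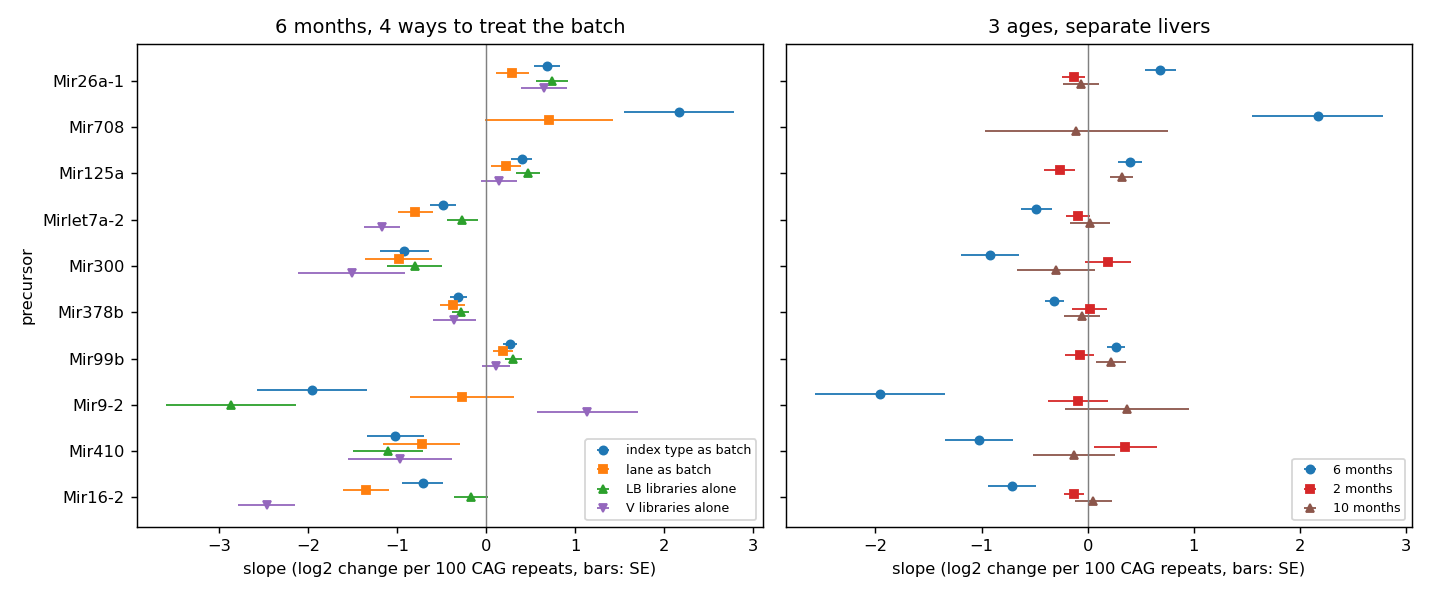
Slopes (log2 change per 100 CAG repeats, bars SE) of the 10 precursors with the smallest p at 6 months, left under 4 ways to treat the batch and right at 3 ages in separate livers. Mir26a-1 had slopes of 0.69 at 6 months, -0.13 at 2 months and -0.06 at 10 months, and a precursor with no point was not tested in that set.

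At other ages, in separate livers of the same 5 lines (40 at 2 months and 39 at 10 months), no precursor passed the test of the slope with all livers in the fit. At 2 months 0 of 298 (0%) were called by edgeR, with 50 at an unadjusted p under 0.05 and 6 calls by DESeq2. Leaving out 1 liver gave calls in 7 of 40 fits, up to 21 without Q92 F1, 19 without Q80 M4 and 17 without Q92 M2. The liver Q80 M1 of 2 months was taken as male from its title, although its sample name carries a code otherwise seen in 2 month females. The fit without Q80 M1 was not among those 7. At 10 months 0 of 301 (0%) were called, with 15 at an unadjusted p under 0.05 and 0 calls by DESeq2. The slope of Mir26a-1 was -0.13 ± 0.11 at 2 months and -0.06 ± 0.17 at 10 months, and its Q175 medians there were 945 and 787 CPM, within the range of the other lines' medians (859 to 1074 CPM and 741 to 936 CPM). The difference of slopes between 6 and 2 months was called for 3 of 344 precursors (0.872%), Mir26a-1 (0.81, edgeR adjusted p = 0.0167), Mir125a (0.66, adjusted p = 0.0167) and Mir224 (1.55, adjusted p = 0.0404), all higher at 6 months. None of the 3 passed with lane as the 6 month batch, with adjusted p of 0.475, 0.438 and 0.371. Between 6 and 10 months 0 of 344 (0%) were called, with 27 at an unadjusted p under 0.05, and the difference for Mir26a-1 was 0.76 (adjusted p = 0.109). Mir224, in an intron of *Gabre*, had a 6 month slope of 0.76 ± 0.24 (adjusted p = 0.0804) at 1.44 to 9.98 CPM.

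Differences among the 5 lines in any order were more frequent than slopes. For any difference among lines, 33 of 305 precursors (10.8%) were called. Of these 33, 15 had an unadjusted slope p under 0.05, Mir26a-1 among them, against 48 of all 305. For a departure from a straight line in CAG length 22 of 305 (7.21%) were called, all of which were among the 33. Slope and departure are parts of the test for any difference on the same livers, so such overlaps are in part built in. Mir10b (chr2:74726070-74726137, in introns of the homeobox genes *Hoxd3* and *Hoxd4*, on their strand) led both (adjusted p = 2.03e-06 and 7.29e-06). Its levels were 49.0, 114 and 209 CPM (lowest, median and highest) in Q140. They were 438, 888 and 1057 CPM in Q80, 483, 635 and 1316 CPM in Q92, 266, 959 and 2393 CPM in Q111 and 392, 643 and 982 CPM in Q175. All 8 Q140 livers lay below every liver of the other 4 expanded lines. In Q20 the levels were 150, 857 and 1088 CPM. The low level held in both index types, with medians of 84.3 CPM in 3 LB and 124 CPM in 5 V livers of Q140. It was not seen in Q140 at the other ages, with medians of 832 CPM at 2 months and 1147 CPM at 10 months, where Q175 at 2 months (260 CPM) and Q80 at 10 months (351 CPM) were the lowest lines. Mir10a, whose mature strand has the same seed, had medians between 29673 and 34136 CPM in all 5 lines.

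Mir181a-1, Mir328, Mir16-2 and Mir26a-1 completed the first 5 calls for any difference, and Mir181a-1, Mir351, Mir328 and Gm24111 those for departure. Mir181a-1 was highest in Q80, at 113, 195 and 278 CPM, and 7 of 8 Q80 livers lay above every other line, while Q92, Q111, Q140 and Q175 had medians of 94.7, 91.7, 118 and 118 CPM. Without the 5 Q80 livers outside lane L3, Mir181a-1 (adjusted p = 0.163) and Mir16-2 (adjusted p = 0.201) were no longer called for any difference, whereas Mir10b (9.49e-04), Mir328 (9.49e-04), Mir351 (0.00191), Mir26a-1 (0.0038) and Gm24111 (0.0175) were. The departure call of Mir181a-1 was lost as well without these livers (adjusted p = 0.131). The count of calls for any difference without them was 21 of 294, of which 18 were among the 33, and that for departure 15, of which 12 were among the 22. Without the liver Q111 F1, 17 precursors were called for departure, and Mir141, Mir200c and Mir375 lost their calls for any difference (adjusted p = 0.357, 0.478 and 0.362). With lane as batch and all 40 livers, Mir26a-1 was not called for any difference (edgeR adjusted p = 0.406). Mir708, Mir125a and Mir99b lost this call as well (adjusted p = 0.0762, 0.236 and 0.227). Mir10b (2.48e-06), Mir181a-1 (6.09e-04), Mir328 (0.00158), Mir351 (8.45e-04) and Gm24111 (2.94e-04) kept it. The rest of the 33 are not given with lane as batch.

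Q175 was compared with Q140 because both alleles come from 1 construct. Of 305 precursors, 3 (0.984%) differed, with Mir10b and Mir708 higher and Mir155 lower in Q175, and 25 had an unadjusted p under 0.05. Lane was not in this fit, and the LB livers of the lines shared no lane, with Q175 in L1 and L2 and Q140 in L7 and L8. A fit with lane as batch was also run, and its values for this contrast are not given here. Mir10b was 5.39-fold higher in Q175 (log2 difference 2.43 ± 0.37, edgeR adjusted p = 3.77e-05), with all 8 Q175 livers above all 8 Q140 livers. It stayed called in each of the 40 fits that left out 1 liver. Mir708 had a log2 difference of 3.25 ± 0.75 (adjusted p = 0.0174), with Q175 at 0.198, 3.78 and 5.63 CPM and Q140 at 0, 0.487 and 1.15 CPM, and 6 of 8 Q175 livers above all Q140 livers. Without Q140 F2 or Q175 M1 it was no longer called (adjusted p = 0.0683 and 0.109). The other lines had medians of 0.259 to 0.689 CPM. Mir708 passed the count filter mainly through Q175 livers, so this call is not separate support for a higher level in Q175. At 2 months its medians were 1.39 CPM in Q140 and 0.946 CPM in Q175, and at 10 months 1.16 and 1.33 CPM.

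Mir155, an activated leukocyte microRNA in the non-coding gene *Mir155hg*, had a log2 difference of -1.31 ± 0.34 (adjusted p = 0.0477). Its levels were 10.8, 18.0 and 80.7 CPM in Q140 and 9.49, 11.4 and 21.6 CPM in Q175, and the high values came from 2 Q140 livers above every other line. Only 8 of the 40 fits that left out 1 liver kept the call, and without Q140 F2 the adjusted p was 0.565. The other white cell markers did not pass in this comparison. Within the LB libraries alone, with 3 Q140 livers, 0 of 284 were called, and the adjusted p of Mir10b and of Mir155 was 0.0949. The log2 difference of Mir10b was 2.31 there, with Q140 at 54.8 to 209 CPM and Q175 at 392 to 982 CPM, so that the groups did not overlap. With sex and replicate number as a block, Mir10b and Mir708 were called and Mir155 was not (adjusted p = 0.194).

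**Figure D4:**
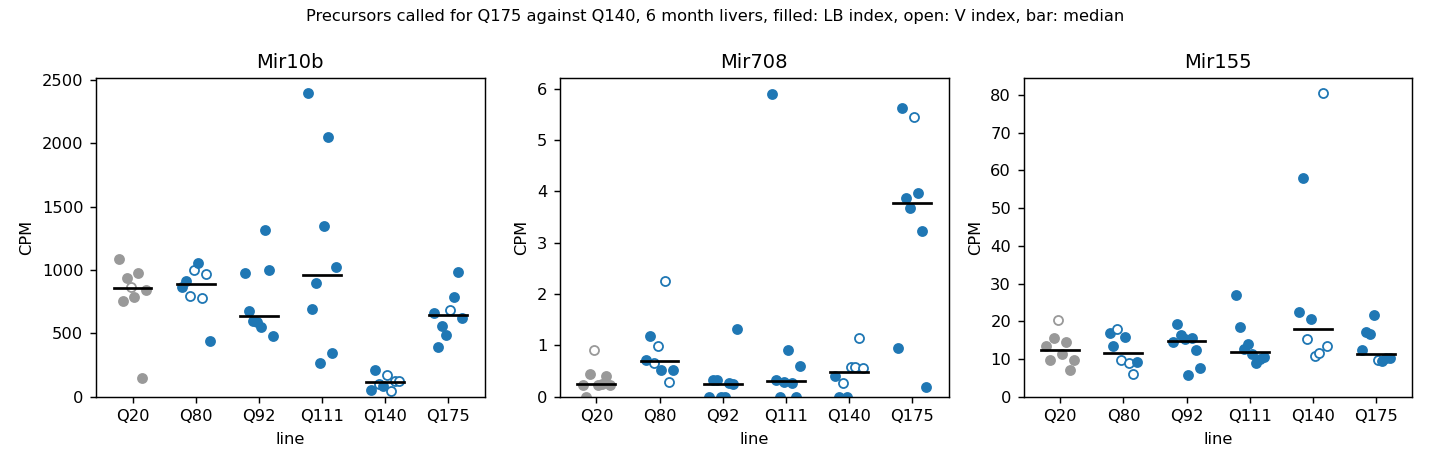
Levels (CPM) of the 3 precursors called for Q175 against Q140, by line, with 1 point for each 6 month liver (filled, LB index, open, V index, grey, Q20) and a bar at the median of 8 livers. All Q140 livers had 49.0 to 209 CPM of Mir10b, and 2 Q140 livers carried the highest values of Mir155.

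The neighbouring lengths Q92 and Q111, all with LB indices, differed at 25 of 305 precursors (8.2%), 17 higher and 8 lower in Q111, with 67 at an unadjusted p under 0.05. Lane was not in this fit. It was the batch term in another fit, whose values for this contrast are not given here. Q92 livers came from lanes L7 (3) and L8 (5) and Q111 livers from L2 (4), L6 (1) and L8 (3), so that only lane L8 held both. Mir351 (chrX:53053255-53053353) was at 180, 242 and 261 CPM in Q92 and 278, 337 and 434 CPM in Q111, so that all 8 Q111 livers lay above all 8 Q92 livers (log2 difference 0.50 ± 0.09, edgeR adjusted p = 3.23e-04). Mir339 was at 22.2, 35.1 and 47.8 CPM in Q92 and 46.3, 48.7 and 58.6 CPM in Q111 (0.49 ± 0.09, adjusted p = 5.08e-04). Mir874 was at 7.03, 9.19 and 11.2 CPM and 7.23, 18.7 and 27.2 CPM (0.80 ± 0.17, adjusted p = 0.00172). Both groups overlapped for each of the last pair, with 4 and 5 of 8 Q111 livers above all Q92 livers.

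Mir328 had a median of 56.5 CPM in Q92 and 74.6 CPM in Q111 (0.38 ± 0.08, adjusted p = 0.00172). Gm24111, an annotated precursor on chromosome 13 with fractional counts in all 40 livers, was lower in Q111, at 587, 712 and 894 CPM against 763, 1302 and 1424 CPM (-0.71 ± 0.13, adjusted p = 3.23e-04). Gm24111 (chr13:48537825-48537921, plus strand) lies between Mirlet7d and Mirlet7a-1, which are on the minus strand in *6720427I07Rik*. Whether its counts are separate from those of let-7 loci was not tested. For Mir351, Mir339, Mir874 and Mir328 the Q20 medians were 366, 56.2, 21.9 and 86.6 CPM, each above the median of Q111, and Q92 was the lowest of the 5 expanded lines in median. At 2 months their Q92 and Q111 medians were 399 and 408, 75.8 and 71.0, 33.8 and 33.3, and 90.4 and 91.3 CPM, and at 10 months 313 and 291, 81.9 and 74.8, 31.7 and 31.5, and 96.9 and 103 CPM. All 5 stayed called in every fit that left out 1 liver.

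**Figure D5:**
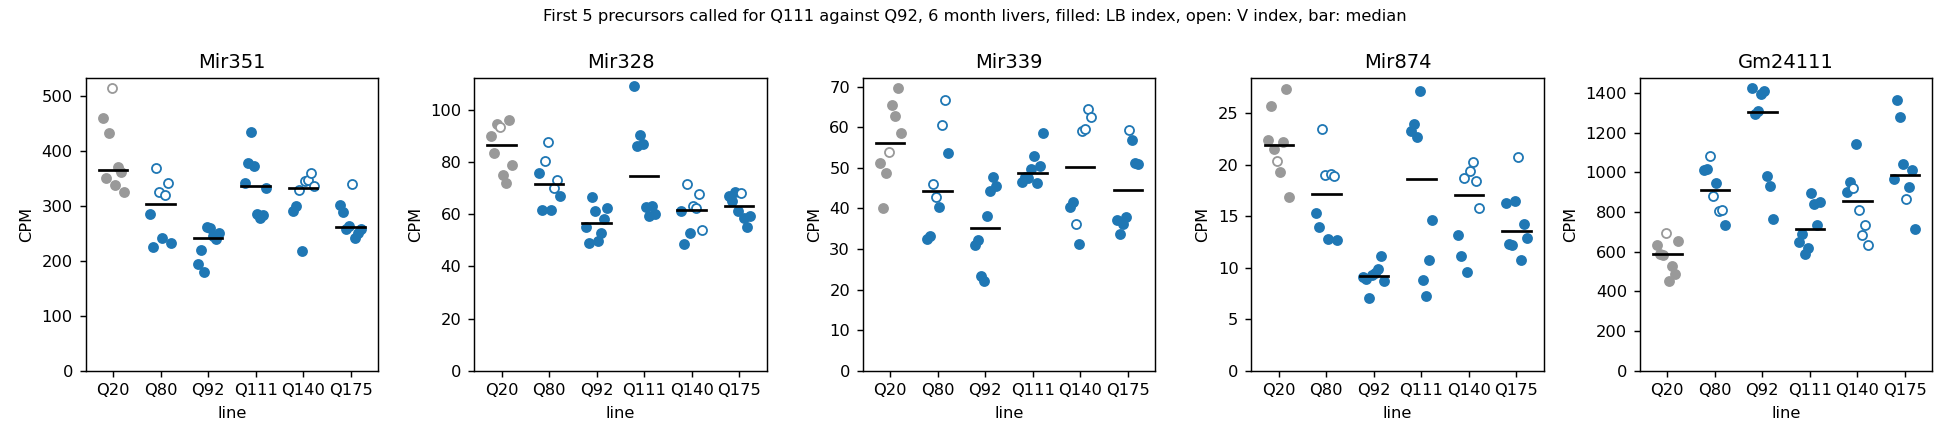
Levels (CPM) of the 5 precursors with the smallest adjusted p for Q111 against Q92, by line, with 1 point for each 6 month liver (filled, LB index, open, V index, grey, Q20) and a bar at the median of 8 livers. Q92 had the lowest median of the expanded lines for Mir351, Mir328, Mir339 and Mir874 and the highest for Gm24111.

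Among the other Q111 and Q92 calls, the epithelial Mir200c and Mir141 and the pancreatic islet Mir375 rested on the liver Q111 F1. Their log2 differences were 2.12, 2.05 and 1.74, and without that liver 0.11, -0.15 and 0.24 (adjusted p = 0.889, 0.806 and 0.729). The liver held 191 CPM of Mir200c, 1636 CPM of Mir141 and 327 CPM of Mir375, against at most 11.3, 105 and 71.0 CPM in the other 39 livers. Without Q111 F1 the count of calls was 16, without Q92 F2 it was 14 and without Q92 F4 it was 16. Mir125a (0.39 ± 0.12), Mir125b-2 (0.38 ± 0.09), Mir27a (0.36 ± 0.10) and Mir27b (0.21 ± 0.06) were among the rest of the higher calls, and Mirlet7a-2 (-0.49 ± 0.14) and the liver-rich Mir22 (-0.20 ± 0.06) among the lower, these 6 being examples chosen after their values were seen.

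No precursor had a slope that differed between females and males, with 0 of 305 (0%) called by edgeR, 12 at an unadjusted p under 0.05, and 0 calls by DESeq2.

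The lists of cell type markers and families were described by their slopes, beside all 305 tested precursors, of which 135 had slopes above 0 and 170 below (median -0.03), 48 had an unadjusted p under 0.05 and 1 (0.328%) was called. At that share a list with no call is no result about its members. All 8 liver-rich precursors had slopes below 0 (median -0.13) and none was called. The most abundant were Mir192 (-0.11 ± 0.06), Mir22 (-0.12 ± 0.06), Mir148a (-0.14 ± 0.08) and Mir122 (-0.05 ± 0.07). The 6 mesenchymal and smooth muscle precursors all had slopes above 0 (median 0.31), 3 with an unadjusted p under 0.05 (24 of all 305 in this direction), and none was called. Their summed level had medians of 34454 CPM in Q80, 41114 in Q92, 39050 in Q111, 47433 in Q140 and 43110 in Q175, with 38516 in Q20, so the groups overlapped and Q80 was lowest. Mir143, the most abundant, had a slope of 0.16 ± 0.16.

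In the other cell type lists no member was called for the slope. The 3 red cell precursors had a median slope of -0.15, and the 6 white cell precursors had a median slope of 0.14. The endothelial Mir126a had a slope of 0.06 ± 0.08. The 5 epithelial precursors had slopes from -0.37 to 0.51 (median 0.34), and without Q111 F1 from -0.033 for Mir141 to 0.64 for Mir429, and 1 of 4 pancreas precursors and 1 of 6 striated muscle precursors were abundant enough to be tested. Of 11 neuronal precursors listed, 6 were tested, 2 with slopes above 0 and 4 below, with a median of -1.50. The 4 with an unadjusted p under 0.05 included Mir9-2, Mir138-2 (-1.67 ± 0.54) and Mir128-2 (-1.32 ± 0.54), at levels of a few CPM, and with lane as batch the median was -0.26.

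Of the 38 *Dlk1*-*Dio3* precursors listed, 10 were tested. All 10 slopes were below 0 (median -0.70, and -0.68 with lane as batch), 5 had an unadjusted p under 0.05 (24 of all 305 in this direction) and none was called. The summed level of the 38 had medians of 347 CPM in Q80, 389 in Q92, 405 in Q111, 311 in Q140 and 315 in Q175, against 346 in Q20, and single livers reached 1439 CPM in Q92 and 935 CPM in Q80. Mir127, the most abundant, had a slope of -0.17 ± 0.25. The neighbours of this cluster come from 1 transcribed region and are not independent.

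The miR-26 family, described above, had all 3 slopes above 0 (median 0.16) and 1 call. Of 10 let-7 precursors, 3 had slopes above 0 and 7 below (median -0.01), and of 13 tested miR-17-92 precursors 2 were above and 11 below (median -0.07), none of them called. The 5 precursors of the miR-23, miR-27 and miR-24 clusters had a median of 0.08, the 14 lipid and insulin precursors -0.03 and the 2 tested miR-34 precursors 0.04. Of the brain microRNAs named by the study, which were chosen there in the brain of the same cohort, 4 of 6 were tested and none was called. Mir132, Mir212 and Mir128-1 had slopes of 0.12 ± 0.11, 0.14 ± 0.13 and 0.04 ± 0.10. Mir128-2, also in the neuronal list, had a slope of -1.32 ± 0.54 with an unadjusted p under 0.05. By their names Mir128-1 and Mir128-2 are loci of 1 microRNA, and the counts of each were fractional in 37 livers. Mir128-1 held a mean of 50.4 CPM and Mir128-2 3.07 CPM over the 40 livers. The slope of their sum is not given here.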

How the data were processed

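Small RNA of 167 livers was sequenced, and the 40 livers described here were selected by title. The authors aligned clipped reads to build mm10 with STAR and counted them per gene with HTSeq, per the study's methods, and the submitters' processing notes name CASAVA 1.8.2. The authors deposited a table of estimated counts for 1626 microRNA precursors. Because only 49.7% of the values above 0 were whole, the values were taken as estimated counts and rounded before the count tests, although whole counts had been assumed in the design. The FPKM table deposited by the authors was not used. Of the 1626 transcript identifiers, 1228 were found in GENCODE M21. Of 136 precursors described, 115 had a mature sequence in RefSeq.

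The main test was the quasi-likelihood test of edgeR (version 4.0.16, under R 4.3.3) after TMM scaling, with sex and index type as covariates and Benjamini-Hochberg adjustment over all precursors tested (adjusted p under 0.05 is a call). CAG length entered as a number per 100 repeats. Lines were compared in 1 fit with line as a factor. At 2 and 10 months lane was the batch term. SE is the size of the log2 value divided by the square root of F. DESeq2 1.42.0 gave an alternative test. Named precursors were those called for the slope, filled to 10 by smallest p, the first 5 calls of each other test, the 4 most abundant of each list and the 5 most abundant of all. The members and lists were chosen with earlier results of these data known. P-values measure the spread between the livers labelled as 1 group. Without molecular identifiers, copies of 1 molecule cannot be told from separate molecules, and whether the counting used strand is not given in the sources used here.

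In simulated counts, 194 of 297 precursors tested were changed by a fold of 2 over the span of lengths. Of these, 88.1% were called for the 6 month slope, all with the right sign, and 7.77% of the unchanged were called. With no change there were 0 calls. So large a share of changed precursors eases the adjusted threshold, where the data gave 1 call of 305. No lane effect was simulated, so the 88.1% does not measure the power in these data.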

Additional observations from a re-analysis of the deposited data

Results flagged for a closer look

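In 90 sets of 8 livers (18 precursors in 5 lines), 10 held a liver far from the other 7 by Dixon's test. For values with a normal spread, chance gives about 1 in 20. The test was run on CPM as they stood, and most of the 10 were of Mir708, Mir300 and Mir9-2, at low levels. The count of 10 is therefore not read against that rate. For Mir708 the highest livers were Q80 M2 at 2.26 CPM (next 1.19), Q92 M4 at 1.32 CPM (next 0.335) and Q111 F1 at 5.90 CPM (next 0.917). For Mir300 they were Q80 M3 at 25.6 CPM (next 10.2), Q92 M2 at 20.3 CPM (next 7.27) and Q140 M1 at 14.3 CPM (next 6.08). For Mir9-2 they were Q111 F1 at 6.88 CPM (next 2.27) and Q175 M1 at 23.6 CPM (next 3.31). Mir16-2 was far in Q111 M1 at 1558 CPM (next 1307), and Mir10b was lowest in Q80 M4 at 438 CPM (next 782).

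The slope differed between ages by a test of the difference for 3 precursors. The 6 month slope was above the 2 month slope by 0.81 for Mir26a-1, 0.66 for Mir125a and 1.55 for Mir224 on the log2 scale per 100 repeats (edgeR adjusted p = 0.0167, 0.0167 and 0.0404). With lane as batch their adjusted p was 0.475, 0.438 and 0.371.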

How the results depend on the processing

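The slope count of 1 became 2 with DESeq2, 2 with no low-count filter, 3 with lane as batch, 0 within LB libraries, 4 within V libraries, 15 with the rank of the line, 16 with log2 of the length, 9 with Q20 livers added, 14 without Q111, 2 without Q140, 9 without Q175, and 0 with loci summed, also with lane as batch. The cause was not tested, beyond fewer livers in the subsets. Any difference among lines (33) gave 50 with DESeq2, 21 with no filter, 10 within LB libraries and 21 without the 5 Q80 livers. Departure from a line (22) gave 9 within LB libraries, Q175 against Q140 (3) gave 0 there, and Q111 against Q92 (25) gave 13 with no filter. The 2 month slope (0) gave 6 with DESeq2, and the 10 month slope (0) gave 4 with no filter. The difference between 6 and 10 months (0) gave 3 with no filter, 1 with lane as batch and 2 within LB libraries, and that between 6 and 2 months (3) gave 0 and 1 for the first 2 of these. Leaving out 1 liver gave 0 to 10 calls for the slope (0 without Q175 F3 or M2, 10 without Q175 M1, of which 7 below 0, 2 without Q111 F1, Q80 M1 or Q80 M2), 1 to 4 for Q175 against Q140 (1 without Q140 F2 or Q175 M1), 14 to 30 for Q111 against Q92 (14 without Q92 F2), 25 to 41 for any difference, 17 to 29 for departure (17 without Q111 F1), and 0 to 21 at 2 months (above 0 without Q175 M1, Q80 M4 and Q92 F1, F3, M2, M3 or M4). Reversed slopes were those of Mir125a (-0.052), Mirlet7a-2 (0.064) and Mir99b (-0.024) with Q20 added, Mir9-2 (1.14) within V libraries and Mir16-2 without Q80 (0.017) or without the 5 Q80 livers (0.030). Of 1008 values of single precursors under alternatives, these 6 changed sign. Summing loci and leaving out the 5 Q80 livers were chosen after seeing the data. With the replicate block, the slope kept 1 call, and the counts were 32, 24, 2 and 21 for any difference, departure, Q175 against Q140 and Q111 against Q92. Replicate numbers did not pair the livers: the median correlation of the deviations of same-numbered livers was 0.000754 over 80 pairs, and 9 of 40 livers were closest to their own number. Depth limits the precision of Mir708 (median 3 counts a liver) and Mir224 (median 19).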

Other observations

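Single livers at 10 months held the highest levels of Mir10b at any age, at 11710 CPM in Q92, 9481 CPM in Q175 and 6182 CPM in Q111, where the medians of these lines were 679, 719 and 1518 CPM. Mir10b varied over a wider range between livers of 1 line than Mir26a-1, whose highest level at 10 months in the 5 expanded lines was 1378 CPM in Q80. These values were chosen after they were seen.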
